A study of Danio rerio with 18 samples.

Results

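Serine tRNAs are the nuclear-encoded tRNAs that deliver serine to the ribosome. They were taken as all nuclear entries of the tRNA count table whose name marks them as serine, which gave 468 of 2578 nuclear entries. Of these, 453 were single transcripts (isodecoders, which share an anticodon but differ elsewhere) and 15 were groups of transcripts whose reads could not be separated. A group is named here by its first member, so that tRNA-Ser-GCU-166 group stands for 7 transcripts counted together. The 2 mitochondrial serine entries were left out.

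The measurements came from wild-type zebrafish of the TLAB strain under unperturbed conditions, profiled by mim-tRNAseq, a method whose reverse transcriptase passes modified bases so that full-length molecules can be resolved by transcript. The 12 abundance libraries comprised 2 from each of 6 stages, from egg, sampled at 0 hours post-fertilization (hpf), and the 256-cell and 1000-cell stages at 2.5 and 3 hpf, through sphere (4 hpf) and the shield stage at 6 hpf, to bud at 10 hpf. A further 6 libraries, 3 from bud and 3 from sphere embryos, measured charging, meaning how much of each tRNA family was aminoacylated, and their labels gave no strain. Every library was a pool of whole eggs or embryos, so p-values measure the spread between such pools. Per the study's methods the abundance replicates of a stage were sampled on separate days. For the charging replicates no sampling days were stated.

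Serine is one of the amino acids with the most codons. The anticodons AGA, UGA and CGA serve the UCN codon box, where the first base of AGA is usually read as inosine, and GCU serves AGU and AGC. Serine tRNAs belong to class II, which have a long variable arm, as do leucine and selenocysteine (SeC) tRNAs. Seryl-tRNA synthetase recognizes that arm rather than the anticodon, so that a single enzyme charges all serine families, and it also places serine on tRNA-SeC before the conversion to selenocysteine.

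Library totals lay between 977425 (egg replicate 1) and 10121680 counts (256-cell replicate 1), and serine tRNAs took 30268 to 374746 of them. Detection was set at 0.005% of nuclear counts in at least 1 library, which kept 49 of the 453 single serine transcripts and 8 of the 15 groups, against 607 of 2505 single transcripts in all families. At the edge of that threshold stood tRNA-Ser-GCU-42 and the tRNA-Ser-AGA-146 group, whose highest shares were 0.00556% and 0.00544%, and tRNA-Ser-AGA-52 and tRNA-Ser-AGA-47 just under it at 0.00487% and 0.0047%. The 404 undetected transcripts together held 2.33 to 3.88% of serine counts in a library. No count was seen for 34 serine entries in any library, which allows up to 3 counts each per library, or 0.000379% of nuclear counts in the shallowest and 3.52e-05% in the deepest. Groups held between 30.4% and 35.9% of serine counts, which could not be given to a single transcript.

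The serine share of nuclear tRNA counts was 3.82% and 3.80% in egg, 4.40% and 3.98% at 256-cell, 5.09% and 3.87% at 1000-cell, 4.63% and 4.53% at sphere, 5.55% and 4.40% at shield and 4.68% and 4.20% at bud. Replicates were close at egg and sphere and stood apart at 1000-cell and shield. Wilson intervals at 95% were at most 0.0845 percentage points wide and cover counting error only, so the gaps between replicates at 1000-cell and shield were wider than counting error, and that at egg was not. All values are relative to the other tRNAs of a library. In whole embryos, fewer cells holding a tRNA and less of it per cell cannot be told apart.

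Ser-AGA and Ser-GCU made up most of the serine pool at every stage, and Ser-UGA and Ser-CGA took larger parts of it at bud than in any earlier library. The Ser-AGA share of serine counts was 57.5 ± 4.48% in egg, 59.8 ± 2.48% at 256-cell, 58.2 ± 1.12% at 1000-cell, 59.8 ± 2.26% at sphere, 60.2 ± 2.03% at shield and 51.8 ± 2.37% at bud (SD, n = 2 per stage, here and below). The 2 bud libraries, at 50.1% and 53.4%, lay below all 10 others, of which the lowest was egg replicate 1 at 54.4%. The Ser-GCU share was 31.6 ± 4.68%, 27.9 ± 4.96%, 30.1 ± 0.0816%, 29.6 ± 3.10%, 26.8 ± 1.30% and 29.3 ± 1.71% in the same order of stages. The shield libraries, at 27.8% and 25.9%, lay below both libraries of egg, 1000-cell and bud, and the bud libraries lay between the 2 sphere libraries.

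The minor anticodons moved the other way. Ser-UGA held 7.46 ± 0.378% of serine counts in egg, 9.03 ± 2.58% at 256-cell, 8.64 ± 1.47% at 1000-cell, 7.52 ± 0.665% at sphere, 9.63 ± 1.15% at shield and 13.1 ± 0.458% at bud. Ser-CGA held 3.44 ± 0.174%, 3.33 ± 0.0899%, 3.06 ± 0.275%, 3.05 ± 0.176%, 3.30 ± 0.415% and 5.90 ± 0.202% in that order. Both bud libraries exceeded all 10 others in both families, with Ser-UGA at 13.4% and 12.8% against a highest earlier share of 10.9% (256-cell replicate 2), and Ser-CGA at 6.04% and 5.75% against 3.60% (shield replicate 2). Wilson intervals of these shares were 0.116 to 1.12 percentage points wide. With 2 libraries against 2 an exact permutation test cannot go below p = 0.333, so the shares are given as a description and the test of abundance was made across all families.

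**Figure D1:**
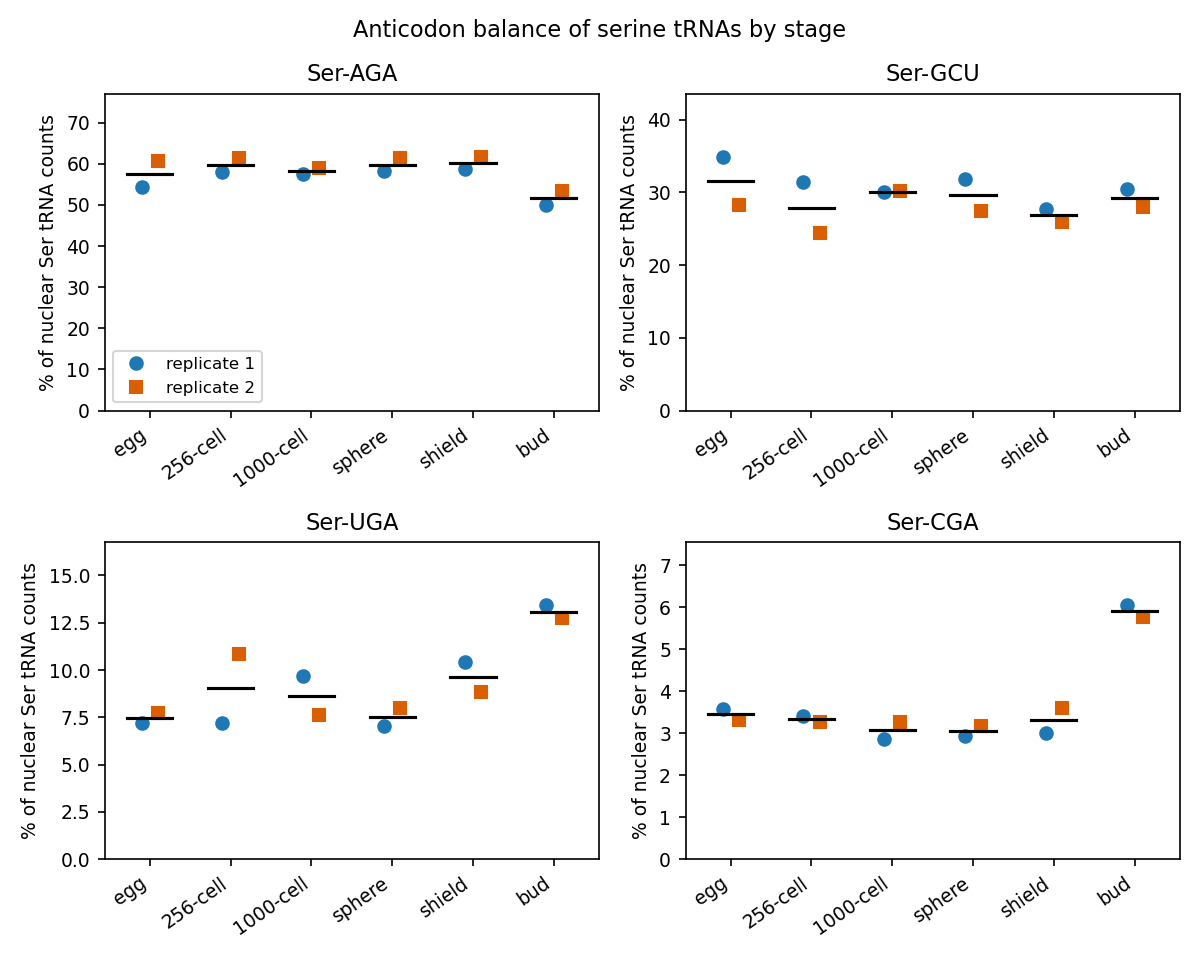
Share of each serine anticodon family in the nuclear serine counts (%, each axis from 0) against stage in time order, with circles for replicate 1, squares for replicate 2 and bars for the mean of 2 libraries. At bud Ser-UGA (13.1%) and Ser-CGA (5.90%) stand above all earlier libraries and Ser-AGA (51.8%) below them, while Ser-GCU at bud (29.3%) lies within the range of the earlier libraries.

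Among 47 anticodon families tested with DESeq2 for bud against egg, Ser-CGA and Ser-UGA rose, in a comparison where 36.2% of families were called (adjusted p at most 0.05). Ser-CGA had 8012 and 6874 normalised counts in bud, against 3728 and 3364 in egg, or a log2 change of 1.07 ± 0.16 (SE, adjusted p 3.83e-09). Ser-UGA had 17803 and 15259 in bud, against 7511 and 7821 in egg, or a log2 change of 1.11 ± 0.25 (adjusted p 9.56e-05). The groups did not overlap in either family. Ser-AGA (0.14 ± 0.14, adjusted p 0.459) and Ser-GCU (0.19 ± 0.22, adjusted p 0.532) were not called.

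Most of the Ser-CGA difference lay between shield and bud. For bud against shield, where 10.6% of families were called, Ser-CGA rose by 0.76 ± 0.16 (DESeq2 adjusted p 8.25e-05), and the Ser-UGA value of 0.34 ± 0.25 was not called (adjusted p 0.374). For bud against sphere, where 29.8% of families were called, Ser-CGA rose by 0.99 ± 0.16 (adjusted p 6.82e-08) and Ser-UGA by 0.84 ± 0.25 (adjusted p 0.00396). The Ser-UGA call at bud against sphere was lost without sphere replicate 1 (0.75, adjusted p 0.148), sphere replicate 2 (0.94, 0.0767) or bud replicate 1 (0.73, 0.112).

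For shield against egg, where 17.0% of families were called, Ser-UGA and Ser-AGA rose, but neither call held with each library left out in turn. A fit without an egg or shield library leaves that stage a single library. A call lost there can also reflect lost replication. Ser-UGA had 15590 and 10591 normalised counts at shield, against 7511 and 7821 in egg, or a log2 change of 0.77 ± 0.25 (DESeq2 adjusted p 0.0249). Ser-AGA had 87785 and 74053 at shield, against 56804 and 61471 in egg, a change of 0.45 ± 0.14 (adjusted p 0.0211). Without shield replicate 1 the values were 0.45 for Ser-UGA and 0.31 for Ser-AGA, and without egg replicate 1 they were 0.73 and 0.38, with adjusted p values of 0.130 to 0.278 for all 4. The Ser-UGA call was also lost without sphere replicate 1 (0.77, adjusted p 0.0676) or sphere replicate 2 (0.77, 0.0706). At 256-cell, 1000-cell and sphere against egg no serine family was called.

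The same comparisons over single transcripts gave few serine calls before gastrulation. DESeq2 called 0 of 49 detected serine transcripts at 256-cell, 1000-cell and sphere against egg, in comparisons where 0.988%, 0.494% and 0.824% of all 607 detected transcripts were called. At an unadjusted p under 0.05 there were 5, 3 and 3 of the 49 serine transcripts, beside 75, 62 and 61 of all 607. With edgeR 0 serine transcripts were called in each. For shield against egg 7 of 49 were called, all higher (14.3%, beside 15.5% of all detected transcripts, 8.07% higher and 7.41% lower). The 7 include tRNA-Ser-AGA-108, which passed detection only in shield replicate 1. For bud against egg 10 of 49 were called, 8 higher and 2 lower (20.4%, beside 27.2% of all, 16.0% higher and 11.2% lower). The total shares were near or below the background. The share called higher at shield (14.3%) was above the 8.07% of all detected transcripts, with tRNA-Ser-AGA-108 among the 7. The median log2 change over the 49 was 0.24 at shield and 0.24 at bud against egg, beside -0.05 and -0.00 over all detected transcripts. It was already 0.25 at sphere against egg, beside -0.02 over all, where no serine transcript was called.

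Between later stages the calls narrowed to a few transcripts. For shield against sphere 2 serine transcripts rose, beside 1.65% of all transcripts called, with 1.65% higher and 0% lower. For bud against shield 3 rose, beside 10.5% of all called, 10.4% higher and 0.165% lower. For bud against sphere 3 rose and 3 fell, beside 19.9% of all called, 13.7% higher and 6.26% lower. The same 3 transcripts rose in both of these last comparisons, tRNA-Ser-CGA-14, tRNA-Ser-UGA-19 and tRNA-Ser-AGA-3, 1 from each anticodon of the UCN box.

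tRNA-Ser-CGA-14, encoded by 3 gene copies, reads UCG. Its normalised counts were 722 and 665 in egg, 1121 and 1046 at 256-cell, 756 and 726 at 1000-cell, 864 and 829 at sphere, 1756 and 1800 at shield and 7559 and 6336 at bud. The bud libraries were 10.0-fold above the egg mean, and the shield libraries 2.56-fold, with no overlap between bud, shield and the 4 earlier stages. The log2 change was 3.33 ± 0.19 for bud against egg (DESeq2 adjusted p 4.91e-67), 3.04 ± 0.18 for bud against sphere (6.70e-59), 1.97 ± 0.18 for bud against shield (4.82e-25), 1.36 ± 0.19 for shield against egg (2.79e-10) and 1.07 ± 0.18 for shield against sphere (5.17e-06). The shield against sphere call was lost without sphere replicate 2 (1.03, adjusted p 0.0580) or shield replicate 1 (1.09, 0.0827).

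tRNA-Ser-UGA-19, also encoded by 3 gene copies, was probed by northern blot in the study. The paper reports that its level on these blots, made from RNA matched to the abundance libraries, rose as gastrulation began. Its normalised counts were 1688 and 1683 in egg, 2644 and 2559 at 256-cell, 1860 and 1788 at 1000-cell, 2104 and 2053 at sphere, 3555 and 3652 at shield and 14888 and 11839 at bud. As for tRNA-Ser-CGA-14, the bud and shield libraries stood clear of all earlier ones. The bud mean was 3.71-fold that of shield, or a log2 change of 1.89 ± 0.18 (DESeq2 adjusted p 7.07e-23). For shield against sphere the change was 0.79 ± 0.18 (adjusted p 0.00347), a call that was lost without either sphere library or either shield library (0.77 to 0.82, adjusted p 0.0969 to 0.622). With edgeR neither transcript was called for shield against sphere (adjusted p 0.0570 for tRNA-Ser-CGA-14 and 0.143 for tRNA-Ser-UGA-19). Beside these 2 transcripts, tRNA-Ser-AGA-3, a single-copy gene, had 254 and 181 normalised counts in egg, 243 and 312 at 256-cell, 207 and 169 at 1000-cell, 284 and 224 at sphere, 531 and 408 at shield and 1510 and 1411 at bud. It rose by 2.77 ± 0.30 for bud against egg (adjusted p 1.87e-18) and by 1.13 ± 0.30 for shield against egg (0.00447). The shield call was lost without egg replicate 2 (0.88, adjusted p 0.210) or shield replicate 1 (0.93, 0.246).

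tRNA-Ser-CGA-14 and tRNA-Ser-UGA-19 also shared a smaller feature at 256-cell, where both libraries of both transcripts lay above all egg, 1000-cell and sphere libraries. The log2 change for 256-cell against egg was 0.65 ± 0.19 and 0.63 ± 0.19 (DESeq2 adjusted p 0.0639 for both), so neither passed the threshold. With TMM factors in place of median-of-ratios they did (0.72 and 0.70, adjusted p 0.0143 and 0.0111). They also passed in DESeq2 with replicate number as a second term (0.64 and 0.62, adjusted p 0.0196 and 0.0292). Under total nuclear scaling they did not pass in DESeq2 (0.64 and 0.62, adjusted p 0.0948 for both). With edgeR no serine transcript was called for 256-cell against egg. The ratio of tRNA-Ser-UGA-19 to tRNA-Ser-CGA-14 was 2.34 to 2.53 in the 8 libraries from egg to sphere, 2.02 and 2.03 at shield and 1.97 and 1.87 at bud. This ratio was looked at after the values were seen and carries no test. Whether reads were shared between these 2 transcripts was not tested, so their rises may not be separate measurements.

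**Figure D2:**
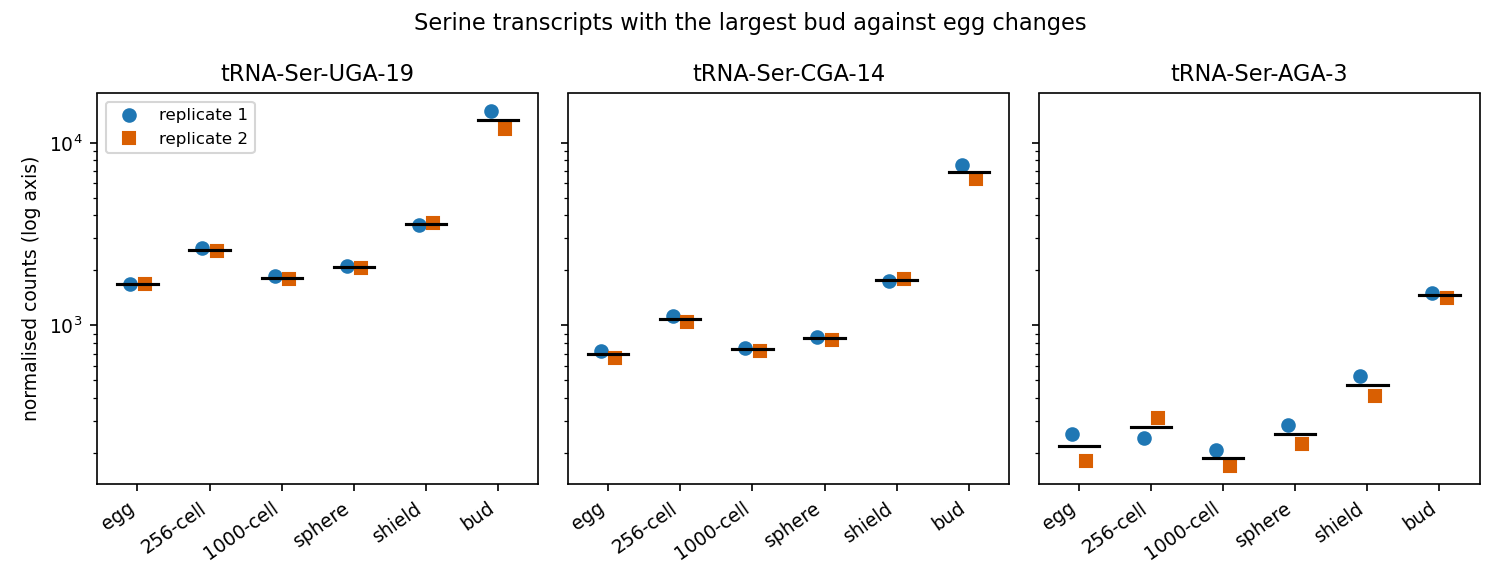
Normalised counts (shared log axis) of tRNA-Ser-UGA-19, tRNA-Ser-CGA-14 and tRNA-Ser-AGA-3 against stage in time order, with circles for replicate 1, squares for replicate 2 and bars for the mean. The bud libraries lie highest in each panel, at 14888 and 11839, 7559 and 6336, and 1510 and 1411 normalised counts.

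Within Ser-CGA and Ser-UGA the balance of transcripts switched. tRNA-Ser-CGA-14 was 20.8% and 19.4% of Ser-CGA counts in egg, 42.8% and 43.6% at shield and 79.0% and 75.6% at bud. tRNA-Ser-UGA-19 was 24.2% and 21.1% of Ser-UGA counts in egg, 24.9% and 36.1% at shield and 70.0% and 63.6% at bud. Thus both families were spread over several transcripts in egg and dominated by 1 at bud. Ser-AGA and Ser-GCU kept their leading entries, with tRNA-Ser-AGA-87 at 35.7 to 44.1% of Ser-AGA and the tRNA-Ser-GCU-166 group at 60.96 to 66.2% of Ser-GCU over the 12 libraries. tRNA-Ser-AGA-3 stayed a small part of its large family, at 1.86 ± 0.0637% at bud and 0.384 ± 0.135% in egg. Together the 3 transcripts made up 15.1% and 13.4% of all serine counts at bud, against 2.74% and 2.45% in egg.

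What was left of each family after taking out these transcripts, which were chosen after their values were seen, is given with no test. These counts use the size factors of the family fit, as the family sums do. They are therefore not on the scale of the single transcript counts above. The rest of Ser-CGA had 1682 and 1676 normalised counts at bud, against 2951 and 2711 in egg, a log2 ratio of the means of -0.75. The rest of Ser-UGA had 5334 and 5547 at bud, against 5695 and 6171 in egg, a ratio of -0.12. The rest of Ser-AGA had 65186 and 62691 at bud, against 56531 and 61294 in egg, a ratio of 0.12. So the higher family sums of Ser-CGA and Ser-UGA at bud were held by tRNA-Ser-CGA-14 and tRNA-Ser-UGA-19.

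**Figure D3:**
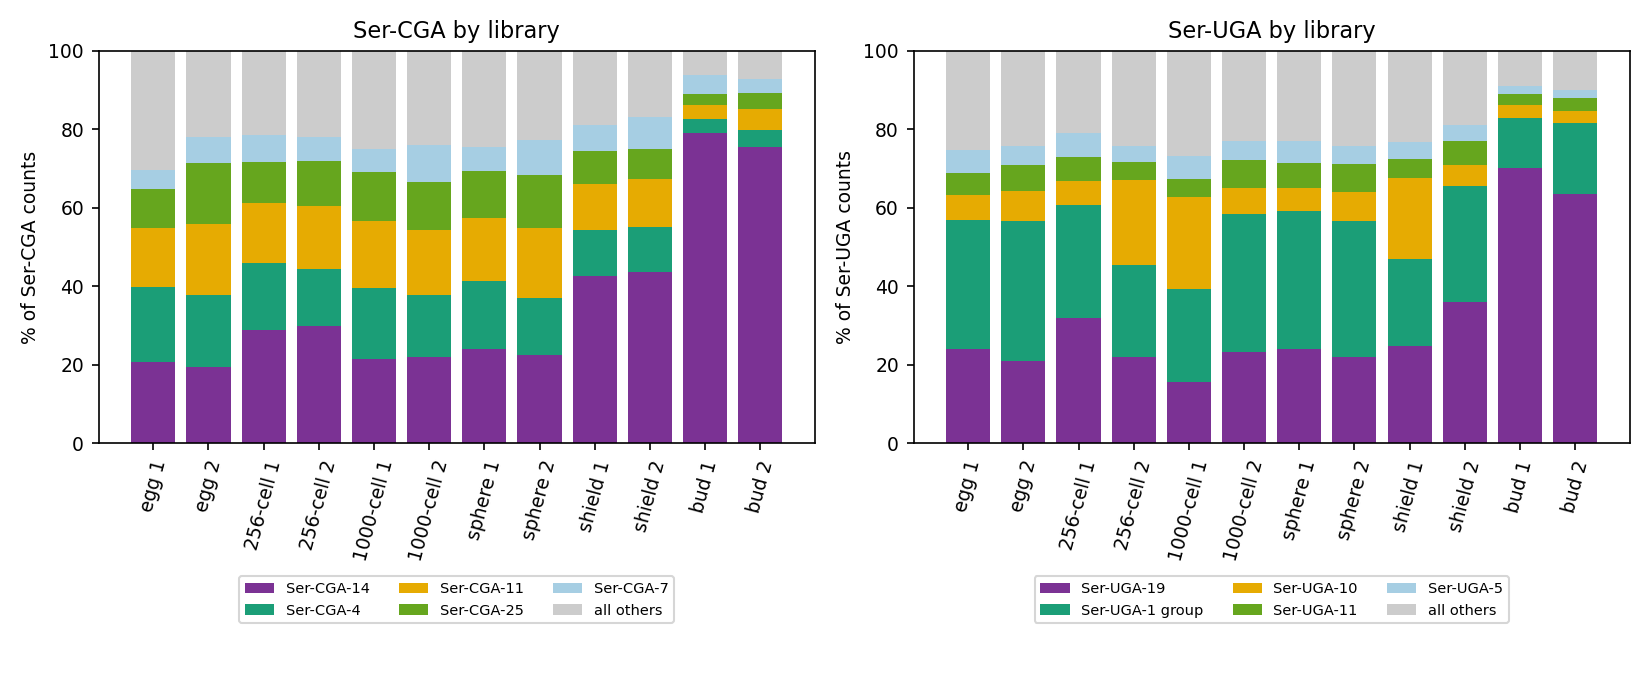
Share (%, stacked to 100) of the 5 most abundant entries and of all others in the counts of Ser-CGA (left) and Ser-UGA (right), 1 bar per library in stage order. tRNA-Ser-CGA-14 and tRNA-Ser-UGA-19, at the base of the bars, reach 79.0% and 75.6% and 70.0% and 63.6% in the 2 bud libraries, and tRNA-Ser-UGA-10 is wide in 256-cell replicate 2, 1000-cell replicate 1 and shield replicate 1.

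Other Ser-CGA transcripts went lower while tRNA-Ser-CGA-14 rose. tRNA-Ser-CGA-4 (3 copies) had 352 and 359 normalised counts at bud, against 661 and 628 in egg, a fall of 0.86 ± 0.24 on the log2 scale (DESeq2 adjusted p 0.00359). tRNA-Ser-CGA-6 (2 copies) had 134 and 141 at bud, against 266 and 215 in egg, a fall of 0.79 ± 0.28 (adjusted p 0.0397). Neither pair of stages overlapped. The call of tRNA-Ser-CGA-4 was lost without either egg or either bud library (-0.89 to -0.81, adjusted p 0.0545 to 0.119) and that of tRNA-Ser-CGA-6 without any one of the 12 libraries (-0.95 to -0.63, 0.0537 to 0.316). edgeR called neither (adjusted p 0.174 and 0.330).

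For bud against sphere tRNA-Ser-CGA-4, tRNA-Ser-CGA-6 and tRNA-Ser-CGA-11 fell by 0.71 ± 0.23, 0.89 ± 0.28 and 0.66 ± 0.23 (DESeq2 adjusted p 0.0183, 0.0115 and 0.0292). tRNA-Ser-CGA-11 (2 copies) had 343 and 442 normalised counts at bud, against 583 and 657 at sphere. Its call was lost without any one of the 12 libraries (-0.83 to -0.46, adjusted p 0.0554 to 0.685). That of tRNA-Ser-CGA-6 was lost without either sphere or either bud library (-0.94 to -0.82, adjusted p 0.109 to 0.346). That of tRNA-Ser-CGA-4 was lost without any library but the 256-cell pair and shield replicate 2 (-0.81 to -0.59, adjusted p 0.0535 to 0.423). None of the 3 was called for bud against sphere with edgeR (adjusted p 0.310 to 0.491) or TMM factors (0.0529 to 0.179). Of the 8 detected Ser-CGA transcripts, 6 had negative values for bud against egg, with a median of -0.56. The exceptions were tRNA-Ser-CGA-14 and tRNA-Ser-CGA-7, whose value of 1.02 ± 0.38 was not called (adjusted p 0.0528).

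Among the Ser-AGA transcripts, tRNA-Ser-AGA-87 was the most abundant serine transcript of all, with 19.4 to 27.2% of serine counts in a library and 1 gene copy. It had 33367 and 31674 normalised counts at bud, against 18860 and 24920 in egg, and was called at 0.57 ± 0.20 on the log2 scale (adjusted p 0.0291 with DESeq2). tRNA-Ser-AGA-72, which stands outside the naming rule and was named after its values were seen, had 7337 and 7954 at bud, against 4898 and 5719 in egg, a change of 0.52 ± 0.17 (adjusted p 0.0174). Both calls depended on the scale, because total nuclear scaling lowers bud against egg values of detected transcripts by a median of 0.38 on the log2 scale. Under it the 2 values were 0.19 and 0.14 (adjusted p 0.575 and 0.640). With edgeR the value of tRNA-Ser-AGA-72 was not called either (0.64, adjusted p 0.0619). Both calls were also lost without egg replicate 1, either 1000-cell library, sphere replicate 2, either shield library or either bud library, and that of tRNA-Ser-AGA-87 without sphere replicate 1 as well (0.39 to 0.62 for tRNA-Ser-AGA-87, adjusted p 0.0609 to 0.319, and 0.43 to 0.60 for tRNA-Ser-AGA-72, 0.0546 to 0.314).

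Total nuclear scaling also changed the split of serine calls for bud against egg to 5 higher and 7 lower, in place of 8 and 2, and TMM factors to 11 higher and 1 lower (3 higher and 0 lower for bud against sphere). Under total nuclear scaling the split was 3 higher and 5 lower for bud against shield and 3 higher and 6 lower for bud against sphere, with medians of all detected transcripts shifted by -0.44 and -0.39. The shares of all transcripts called under these scalings are not given, so the splits show dependence on the scale and no result about serine. The values of tRNA-Ser-AGA-97, with 2 copies, and tRNA-Ser-GCU-27, with 1, kept their calls under total nuclear scaling (0.90 and 0.81). tRNA-Ser-AGA-97 had 299 and 311 normalised counts at bud, against 128 and 123 in egg, or a log2 change of 1.28 ± 0.30 (DESeq2 adjusted p 0.000339). It was already at 307 and 355 at shield (1.40 ± 0.30 against egg, adjusted p 0.000160). tRNA-Ser-GCU-27 had 356 and 304 at bud, against 141 and 148 in egg, a change of 1.19 ± 0.30 (adjusted p 0.00101, and 1.09 with 0.0660 without bud replicate 1).

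tRNA-Ser-GCU-146, with 1 copy, had 788 and 751 normalised counts at bud, against 424 and 319 in egg, and was called at 1.06 ± 0.39 on the log2 scale (adjusted p 0.0490 with DESeq2). That call was lost without any egg, 256-cell or bud library or sphere replicate 2 (0.87 to 1.28, adjusted p 0.0501 to 0.294), with edgeR (1.17, 0.0671) and under total nuclear scaling (0.67, 0.297). tRNA-Ser-AGA-108 (1 copy) had 151 and 50.1 at shield, against 16.0 and 26.8 in egg, a change of 2.17 ± 0.64 (adjusted p 0.0115). It reached the detection threshold only in shield replicate 1, and so entered the 49 detected transcripts through that library. Its shield value rested on 1 library, since without shield replicate 1 it was 1.15 (adjusted p 0.510), and it was not called without egg replicate 1 (1.90, 0.133) or egg replicate 2 (2.64, 0.0907) either. tRNA-Ser-AGA-156, also outside the naming rule, had 433 and 415 at shield, against 193 and 223 in egg (1.02 ± 0.34, adjusted p 0.0317). It lost that call without either egg, 1000-cell or shield library or bud replicate 2 (0.92 to 1.13, adjusted p 0.0543 to 0.299). The shield value of tRNA-Ser-GCU-27 (0.96 ± 0.29, adjusted p 0.0180) was lost as a call without either egg, shield or bud library or 1000-cell replicate 2 (0.87 to 1.03, 0.0507 to 0.303). edgeR called neither of these shield values (adjusted p 0.0998 for tRNA-Ser-AGA-156 and 0.118 for tRNA-Ser-GCU-27).

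The remaining leading entries were not called by DESeq2 with median-of-ratios for bud against egg. tRNA-Ser-CGA-11 had a value of -0.54 ± 0.23 (DESeq2 adjusted p 0.0972), and was called under total nuclear scaling (-0.92, adjusted p 0.00104). tRNA-Ser-AGA-135 (1 copy) had 8254 and 7087 normalised counts at bud, against 6198 and 7621 in egg, and its value of 0.15 ± 0.26 turned to -0.23 under total nuclear scaling. tRNA-Ser-GCU-87 (1 copy) had 13231 and 10693 at bud, against 7893 and 6769 in egg (0.71 ± 0.30, DESeq2 adjusted p 0.0941). It was called with edgeR (0.81, adjusted p 0.0453) and with TMM factors (0.81, 0.0463), and its value under total nuclear scaling was 0.32 (0.576). tRNA-Ser-GCU-194 (1 copy) had 1132 and 1299 at bud, against 1547 and 1134 in egg (-0.14 ± 0.23). tRNA-Ser-UGA-10 had 735 and 543 at bud, against 433 and 599 in egg (0.31 ± 0.86, and -0.068 under total nuclear scaling). Groups were not fitted as transcripts. The tRNA-Ser-GCU-166 group, which held 60.96 to 66.2% of Ser-GCU counts, had 30421 and 25822 at bud, against 21822 and 18710 in egg, and the tRNA-Ser-AGA-120 group had 12552 and 12745 at bud, against 8621 and 10029 in egg. The tRNA-Ser-UGA-1 group had 2710 and 3346 at bud, against 2295 and 2843 in egg, where the stages overlapped. These group counts use the size factors of the transcript fit. Total nuclear scaling lowers bud against egg values of detected transcripts by a median of 0.38 on the log2 scale. As a share of its family, the tRNA-Ser-GCU-166 group was 63.0% and 63.2% at bud, against 64.4% and 64.1% in egg. That of the tRNA-Ser-AGA-120 group was 15.8% and 16.4% at bud, against 16.3% and 16.0% in egg.

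Replicate libraries of a stage differed in 2 ways that bear on serine tRNAs. The first was the serine share itself, compared here with the other class II tRNAs. The replicate 1 over replicate 2 ratio of the serine share ranged from 1.01 at egg to 1.32 at 1000-cell. For leucine tRNAs, the other large class II set, it ranged from 0.801 at sphere to 1.41 at 256-cell, and for the single SeC entry from 0.564 to 1.18. The directions differed between the sets, with ratios of 1.02 for serine and 0.801 for leucine at sphere, and 1.11 and 0.950 at bud. By family, the median difference between replicates was 0.11 for Ser-AGA, 0.16 for Ser-CGA, 0.34 for Ser-UGA and 0.35 for Ser-GCU on the log2 scale without sign, beside 0.16 as the median of all 47 families, so Ser-UGA and Ser-GCU were above that level and Ser-AGA and Ser-CGA were not.

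Within serine, Ser-GCU held a larger share of nuclear counts in replicate 1 than in replicate 2 at all 6 stages, by 1.19 to 1.42-fold. Of 47 families it was the only 1 with that direction at every stage, and 4 showed the reverse. No test was made of this. Ser-UGA ratios ran from 0.734 at 256-cell to 1.68 at 1000-cell. Over 2-fold differences between replicates were seen for 2 of the 49 serine transcripts at egg, 5 at 256-cell, 5 at 1000-cell, 1 at sphere, 8 at shield and 0 at bud. Over all 607 detected transcripts the shares with such differences were 14.3%, 16.8%, 12.7%, 8.07%, 13.3% and 6.43% in the same order. The serine share was above that level only at shield (16.3%). The shield count includes tRNA-Ser-AGA-108, which passed detection only in shield replicate 1. It also includes tRNA-Ser-UGA-85, which passed only in a set of libraries that holds shield replicate 1. The filter thus in part set that count, and it is no result about serine transcripts.

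The second was a set of transcripts that were high in the same 3 libraries, 256-cell replicate 2, 1000-cell replicate 1 and shield replicate 1. tRNA-Ser-UGA-10 (2 copies) had 2529, 2777 and 2937 normalised counts there, against 433 to 735 in the 9 other libraries, with a median of 533. tRNA-Ser-UGA-2 had 708, 814 and 868, against 160 to 282, and tRNA-Ser-UGA-85 had 329, 413 and 401, against 54.6 to 128. Thus each of the 3 transcripts was 3.69 to 4.87-fold higher in these libraries by the ratio of means, while tRNA-Ser-UGA-11 had 398 to 665 normalised counts over all 12. tRNA-Ser-UGA-90, tRNA-Ser-AGA-94 and tRNA-Ser-GCU-206 showed the same order of libraries at 1.79 to 2.06-fold. In all, 6 of the 49 serine transcripts and 51 of the 607 detected transcripts had these 3 libraries above the 9 others, so the pattern was not held by serine tRNAs alone. Of the 6, tRNA-Ser-UGA-85 and tRNA-Ser-GCU-206 reached the detection threshold only in these 3 libraries. tRNA-Ser-UGA-90 reached it only in 1000-cell replicate 1 and shield replicate 1. These counts were therefore in part set by that filter. The transcripts were found by this pattern, and no test was made. Fits without the 3 libraries are given next, but they also lose replicates at these stages. They therefore cannot separate the part of the pattern in the stage comparisons.

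**Figure D4:**
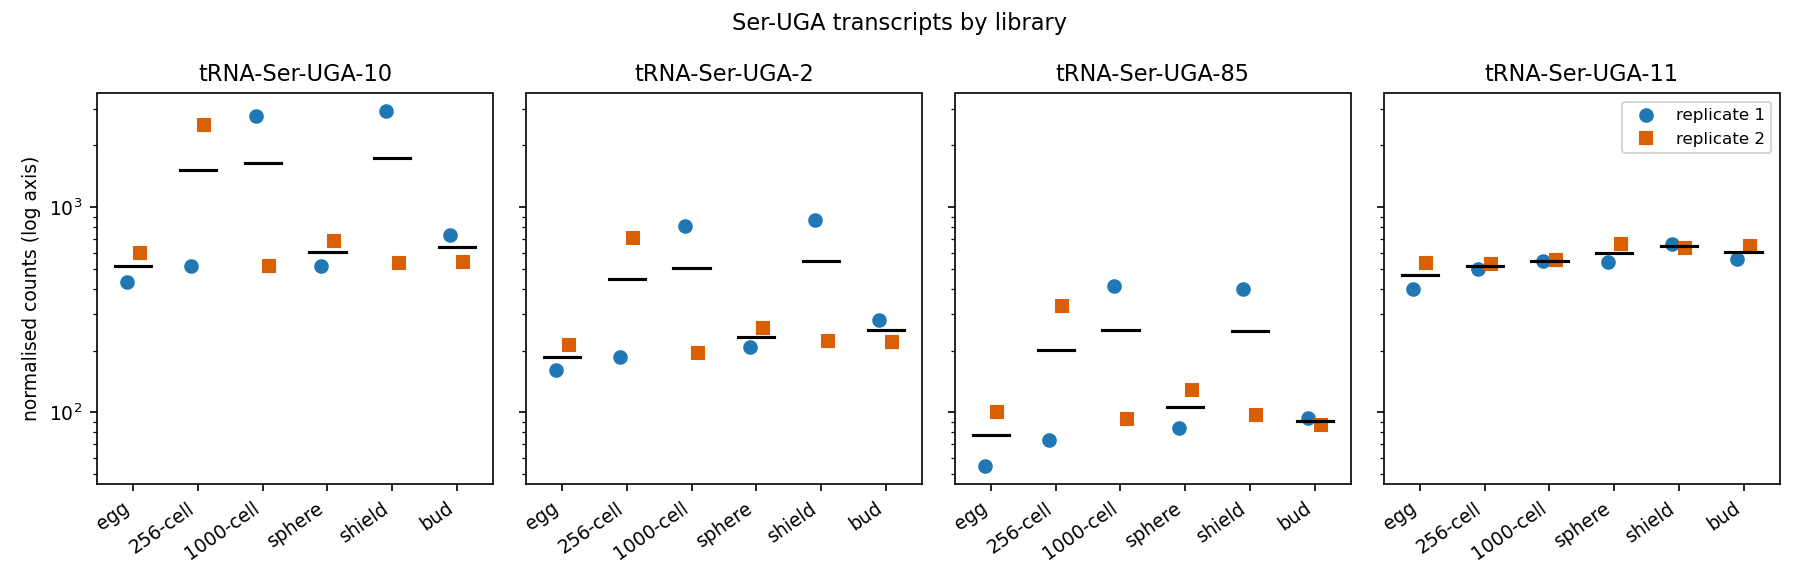
Normalised counts (shared log axis) of tRNA-Ser-UGA-10, tRNA-Ser-UGA-2, tRNA-Ser-UGA-85 and, for comparison, tRNA-Ser-UGA-11 against stage in time order, with circles for replicate 1, squares for replicate 2 and bars for the mean. In the left 3 panels 256-cell replicate 2, 1000-cell replicate 1 and shield replicate 1 stand above the 9 other libraries, which is not seen for tRNA-Ser-UGA-11.

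Without these 3 libraries, an alternative chosen after the values were seen, DESeq2 called 8 serine transcripts for bud against egg, 3 for shield against egg, 4 for bud against shield, 5 for bud against sphere and 1 for shield against sphere. The Ser-UGA family then gave 1.08 for bud against egg (adjusted p 3.46e-10) and 0.46 for shield against egg (0.0942), and passed for bud against shield at 0.62 (0.0198). Ser-CGA gave 1.04 for bud against egg (adjusted p 5.00e-07).

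Shares of gene copies and shares of counts differed between the serine families. The table gives 982 gene copies for serine tRNAs, of which Ser-GCU had 42.4%, Ser-AGA 34.7%, Ser-UGA 18.02% and Ser-CGA 4.89%, beside mean shares of serine counts of 29.2%, 57.9%, 9.23% and 3.68%. Of the 982 copies, 84 belonged to the 49 detected transcripts, 365 to groups and 533 to undetected transcripts. Spearman's rho between copy number and normalised counts over the 49 detected transcripts lay between 0.23 at bud and 0.27 at sphere, and over all 453 between 0.04 and 0.07, given as descriptions because transcripts of a library share its depth.

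Single cases show the spread. tRNA-Ser-AGA-87, from 1 copy, averaged 27575 normalised counts, tRNA-Ser-GCU-87, also from 1 copy, 8808, and tRNA-Ser-AGA-135 7752. Counted per gene copy, the tRNA-Ser-AGA-120 group, with 105 copies, gave 106 normalised counts and tRNA-Ser-UGA-5, with 20 copies, 23.4. The tRNA-Ser-GCU-163 group, with 104 copies, stayed under the detection threshold at 18 to 166 counts per library. The transcripts that rose at bud, tRNA-Ser-CGA-14, tRNA-Ser-UGA-19 and tRNA-Ser-AGA-3, had 3, 3 and 1 copies. In the RefSeq annotation of another assembly, GRCz12tu, 93.3% of the 759 genes with these 4 serine anticodons had another tRNA gene as a direct neighbour, against 95.9% of all 8452 tRNA genes there.

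Charging was high in all serine families and no difference between bud and sphere passed the test. The charged fraction of Ser-AGA was 0.862, 0.927 and 0.874 at bud, against 0.901, 0.920 and 0.912 at sphere. That of Ser-CGA was 0.884, 0.924 and 0.869 at bud, against 0.879, 0.861 and 0.898 at sphere, and that of Ser-UGA was 0.868, 0.926 and 0.886 at bud, against 0.890, 0.903 and 0.901 at sphere. Ser-GCU was the least charged, at 0.815, 0.899 and 0.836 at bud, against 0.817, 0.856 and 0.827 at sphere, and ranked 7 of 46 families from the lowest at both stages. The stages overlapped in every serine family, and bud replicate 2 was the highest of the bud libraries in all 46 families.

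The bud minus sphere difference of the charged fraction was -0.0236 for Ser-AGA (95% interval -0.0595 to 0.0124), 0.0132 for Ser-CGA (-0.0228 to 0.0492), -0.00498 for Ser-UGA (-0.0410 to 0.0310) and 0.0165 for Ser-GCU (-0.0195 to 0.0525). limma over 46 families gave an adjusted p of 0.997 for each, and exact two-sided permutation tests of 3 against 3 libraries, which cannot go below p = 0.1, gave 0.4, 0.6, 0.9 and 0.7. Of all 46 families limma called 0, with 2 at an unadjusted p under 0.05. The intervals reach a charged fraction lower by 0.0595 at bud for Ser-AGA and higher by 0.0525 for Ser-GCU. They use the same SE of 0.0182 for every serine family, so they do not measure the spread of each family by itself. For Ser-GCU the SD over 3 libraries was 0.0436 at bud and 0.0199 at sphere. Bud replicate 2 was also the highest bud library in all 46 families, so deviations were shared between families. The limits of the intervals are therefore not bounds on the difference of a single family. Ser-CGA and Ser-UGA, the families that were more abundant at bud, had mean charged fractions of 0.893 ± 0.0286 and 0.893 ± 0.0301 at bud, against 0.879 ± 0.0185 and 0.898 ± 0.00682 at sphere (SD over 3 libraries).

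**Figure D5:**
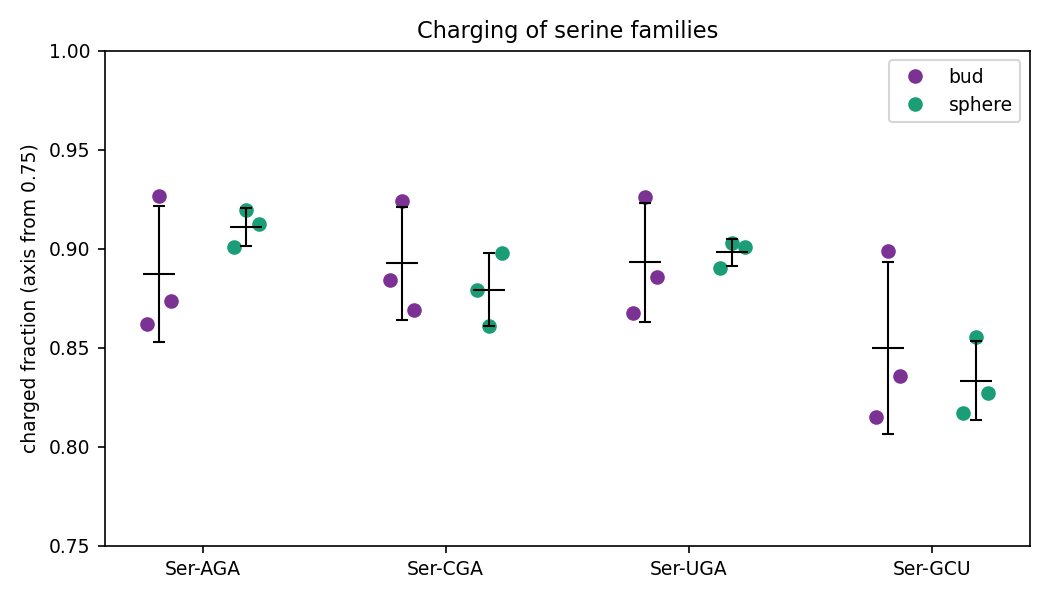
Charged fraction (axis from 0.75 to 1) of the 4 serine families in bud (left of each pair) and sphere (right) libraries, with points for single libraries and bars for the mean with SD of 3 libraries. Bud and sphere overlap in every family, with Ser-GCU lowest at means of 0.850 and 0.833.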

How the data were processed

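The authors trimmed reads with cutadapt 3.5 and ran mim-tRNAseq against GRCz11 tRNA genes, and the deposited table gives raw counts of uniquely mapped reads for each transcript or group, not normalized, beside gene copy numbers. Each read covers most of 1 tRNA molecule, so counts were not divided by length. The deposited charging table holds the charged fraction per anticodon family and library, with no read counts, so its depth is unknown. Transcripts were assigned from few base differences, so reads may be split wrongly between near-identical transcripts.

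Counts of single transcripts (2505) and of 47 families (groups included) were fitted separately with DESeq2 1.42.0 in R 4.3.3 (Wald test, stage as the only term, all 12 libraries, median-of-ratios). P-values were adjusted (Benjamini-Hochberg) over the rows of each fit that passed the independent filter of DESeq2, with a threshold of 0.05. Normalised counts are counts divided by the size factor of that fit. Alternatives were edgeR 4.0.16, a replicate block (replicate number as a second term), other scalings, samples and filters. Charging was tested with limma 3.58.1 on fractions. Shares carry Wilson intervals (95%). In simulated counts for bud against egg over 607 transcripts, 47% of 2-fold and 90% of 4-fold changes were recovered. Replicates differed by a chi-square per degree of freedom of 15.1 to 130 over 57 serine entries, so none was a repeat deposit. Unmapped per-sample columns numbered 0.

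The members and lists were chosen with earlier results of these data known. Named were all serine families, the 3 entries of each with the highest mean share, the 6 largest rises and falls called for bud against egg and the 3 largest for shield against egg with non-overlapping libraries, serine transcripts of contrasts with 5 or fewer calls, and tRNA-Ser-UGA-19. No sequence or GRCz11 coordinate was read here, and the neighbour status of tRNA genes came from the GRCz12tu annotation.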

Additional observations from a re-analysis of the deposited data

How the results depend on the processing

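Of 28 serine transcript calls, 13 were kept under every alternative in which the transcript was tested: those of tRNA-Ser-CGA-14, tRNA-Ser-UGA-19 and tRNA-Ser-AGA-3 at bud against egg, shield and sphere, of tRNA-Ser-CGA-14 and tRNA-Ser-UGA-19 at shield against egg, and of tRNA-Ser-AGA-97 at bud and shield against egg. With 2 libraries a stage, 47% of simulated 2-fold changes were recovered for bud against egg, and smaller changes were not simulated. The cause of the changes below was not tested.

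The count of serine calls was 3 for shield against egg with only the 4 libraries compared. At a detection threshold of 0.05% it was 2 for shield against egg, 4 for bud against egg and 2 for bud against sphere. For shield against sphere it was 0 with edgeR and 1 with only the 4 libraries. For bud against shield it was 8 under total nuclear scaling. For bud against sphere it was 3 with edgeR and 3 with TMM factors, and for 256-cell against egg 2 with TMM factors. The share of all transcripts called in each alternative is not given, so these counts are no result about serine. With each library left out in turn the counts were 3 to 7 for shield against egg, 4 to 9 for bud against egg, 0 to 2 for shield against sphere, 3 to 4 for bud against shield and 3 to 5 for bud against sphere.

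Replicate numbers were not treated as pairs, as the rule for pairing asked for a correlation over 0.1 at all 15 pairs of stages. The differences between replicates 1 and 2 passed that level in 13 of the 15 (range -0.17 to 0.86). The labels do not say whether a replicate number marks a shared day. With the replicate block the counts were 2 for 256-cell against egg (tRNA-Ser-CGA-14, adjusted p 0.0196, and tRNA-Ser-UGA-19, 0.0292), 7 for shield against egg, 14 for bud against egg, 3 for shield against sphere, 4 for bud against shield and 9 for bud against sphere. The share of all transcripts called with the block is not given beside these counts. tRNA-Ser-GCU-87 was called for bud against egg with the block (0.70, adjusted p 0.000223). Charging adjusted p values with the block were 0.558 to 0.983.

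For shield against egg Ser-AGA was not called with edgeR (0.44) or with only the 4 libraries (0.44), and Ser-UGA not with edgeR (0.75). Without the 3 libraries with high tRNA-Ser-UGA-10, which left a single shield library, the values were 0.32 for Ser-AGA and 0.46 for Ser-UGA. For bud against shield Ser-AGA was called with only the 4 libraries (-0.33) and with resolved transcripts (-0.35). Ser-UGA was 0.62 without the 3 libraries, a fit with a single shield library, so no call is read from it. Left-out ranges were 0.31 to 0.56 for Ser-AGA and 0.45 to 1.01 for Ser-UGA at shield against egg, and 0.73 to 0.95 for Ser-UGA at bud against sphere.

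Values near 0 changed sign. Without the 3 libraries Ser-CGA was -0.054 at 1000-cell against egg, and Ser-GCU was 0.20, -0.039 and -0.067 at 256-cell, 1000-cell and shield against egg and -0.00029 at bud against sphere. Ser-GCU at shield against sphere was 0.00012 with only the 4 libraries and 0.063 with resolved transcripts. At bud against shield it was -0.012 with edgeR, -0.041 with total nuclear scaling, -0.012 with TMM factors and -0.011 with resolved transcripts, and at bud against sphere -0.013, -0.060 and -0.013 with the first 3 of these. Left-out ranges were -0.022 to 0.22 and -0.030 to 0.14 for Ser-CGA at 256-cell and 1000-cell against egg, and for Ser-GCU -0.32 to 0.23, -0.017 to 0.33 and -0.078 to 0.34 at 256-cell, 1000-cell and shield against egg, -0.23 to 0.19 at shield against sphere, -0.17 to 0.24 at bud against shield and -0.11 to 0.15 at bud against sphere. For bud against egg tRNA-Ser-AGA-135 was -0.23 and tRNA-Ser-UGA-10 -0.068 with total nuclear scaling, and tRNA-Ser-GCU-194 was -0.34 to 0.11 with 1 library left out. Left-out charging differences were -0.0027 to 0.0250 for Ser-CGA, -0.0216 to 0.0078 for Ser-UGA, -0.0079 to 0.0339 for Ser-GCU and -0.0432 to -0.0108 for Ser-AGA.

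From resolved transcripts alone, the shares of serine counts from egg to bud were 70.8, 71.5, 70.5, 72.7, 70.8 and 60.4% for Ser-AGA, 5.25, 4.90, 4.58, 4.56, 4.80 and 8.49% for Ser-CGA and 16.5, 13.8, 15.7, 15.4, 13.9 and 15.1% for Ser-GCU, with 16.0% for Ser-UGA at bud. As shares of all nuclear counts they were 2.19, 2.50, 2.60, 2.74, 2.99 and 2.29% for Ser-AGA, 0.131, 0.140, 0.136, 0.139, 0.162 and 0.262% for Ser-CGA, 0.284, 0.374, 0.394, 0.344, 0.483 and 0.582% for Ser-UGA and 1.204, 1.17, 1.35, 1.36, 1.34 and 1.30% for Ser-GCU.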
